A study of Homo sapiens with 4 samples.

Results

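The genes described here encode the kinesins, motor proteins that walk along or take apart microtubules, and the alpha, beta and gamma tubulins, from which microtubules are built and nucleated. They were picked by a rule on gene names, with earlier results of these data known. Members were all array probes whose gene name began with KIF and a digit, TUBA and a digit, TUBB, or TUBG and a digit. This gave 91 of the 47321 probes and 60 gene names, divided into 61 kinesin probes for 39 genes, 12 alpha tubulin probes for 9, 12 beta tubulin probes for 10 and 6 gamma tubulin probes for 2. Messenger RNA had been measured in OE33, an established line of human esophageal adenocarcinoma, on Illumina HumanHT-12 v4 arrays, which read each transcript with beads that carry a short probe. Cells of the miR-223 group had received a precursor of the microRNA hsa-miR-223 and cells of the control group a negative control precursor, both with the lipid reagent Lipofectamine. Each precursor was used at 10 nM, and RNA was taken after 24 h. Each group held 2 arrays, called biological replicates in the design text, and both came from a single cell line, so every result describes OE33 cells.

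Microtubules are polymers of paired alpha and beta tubulin. Gamma tubulin sits in a ring complex that starts new filaments, and stathmins and some kinesins shorten them. Several kinesins build the mitotic spindle and complete cytokinesis, while others carry vesicles, organelles or ciliary components. The tubulin genes form families of close isotypes, some used in nearly all cells and others known from neurons, testis, oocytes or platelets.

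The mature strands of the transfected microRNA are shown because the groups differ by it. The capitals mark the seed, bases 2 to 8, through which a microRNA mainly recognises its targets, and the sequences are those of RefSeq in build GRCh38.p14.
hsa-miR-223-3p (chrX:66018937-66018958, plus strand): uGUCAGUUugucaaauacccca
hsa-miR-223-5p (chrX:66018895-66018916, plus strand): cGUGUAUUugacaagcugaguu
Target sites in kinesin or tubulin transcripts were not analysed here. The single probe named MIR223 had a detection p between 0.378 and 0.731 on the 4 arrays. Labelling of this kind starts from poly(A) tails, so that probe checks nothing about the transfected precursor.

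A probe counted as detected on an array when its deposited detection p, which sets its signal against those of the negative controls, was under 0.05. The arrays detected between 18036 and 18916 probes, and between 49 and 50 of the 91 kinesin and tubulin probes. Each array gave a probe signal from a median of 22 beads. Of the marker genes looked up to check the cell type, 7 of 7 epithelial ones were detected on both control arrays, with summed raw signals of 69570 to 70210 in control and 64450 to 71280 in miR-223 arrays. None of the 11 fibroblast probes and none of the 7 neuron probes was detected on more than 1 array. Of 7 leukocyte genes, 3 were detected on both control arrays. With 2 arrays a group, precision is low throughout. Fewer cells that use a gene and less RNA per cell cannot be told apart in such samples.

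In control cells, 47 of the 91 kinesin and tubulin probes (51.6%) were detected on both arrays, against 34.6% of all probes. The detected probes belonged to 34 of the 60 genes. Another 18 genes were detected on no array, 6 by no probe on more than 1 array, and KIF3A and KIF26B on 1 array of each group. Levels of different probes depend on how well each probe binds, so signals are given for each probe against itself and isotypes are not ranked.

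Among the alpha tubulins, 5 of 9 genes were detected, all of them on all 4 arrays. TUBA1B and TUBA1C, alpha isotypes of most dividing cells, and TUBA1A, best known from developing neurons, gave raw control signals between 11168 and 25695 intensity units over 5 probes. TUBA4A, an isotype prominent in platelets, gave 2893 and 2735 units in control cells. TUBA3D, known from testis, had a probe at 978 and 997 units and another that was detected on no array. The genes TUBA3C, TUBA3E, TUBA4B and TUBA8 were detected on no array. Alpha tubulin isotypes are near-identical in sequence, and the probe sequences were not used here, so how far a probe also binds related transcripts was not tested.

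The beta tubulins had 7 of 10 genes detected. TUBB and TUBB4B, the beta isotypes found in most tissues, gave control signals from 4608 to 8047 units over 3 probes. TUBB3, known as a neuronal isotype, was detected on all 4 arrays at 754 and 877 units in control cells, while 5 of 6 neuron marker genes were detected on no array. The raw signal of the neuron markers, summed over 7 probes with background included, was 700 to 732 units in control and 731 to 748 in miR-223 arrays. That sum cannot be set against the signal of the single TUBB3 probe. The median raw signal over all probes was 114.5 to 118.4 units on the 4 arrays. TUBB2A gave 721 and 804 units in control cells. TUBB2B, also known from neurons, was dim at 129 and 146 units. TUBB6 was detected by both of its probes. The probe named for TUBB7P, a pseudogene listed under its older name TUBB4Q, gave 1095 and 1003 units, and its source is uncertain because its sequence is close to that of other beta tubulins. TUBB1, a platelet isotype, TUBB8, an oocyte isotype, and the probe named TUBB4 were detected on no array. TUBB4 is an older name of more than 1 gene and was left as in the file, while the authors' gene annotation lists it as TUBB4A. Gamma tubulin was detected for TUBG1, on 4 of 5 probes, and for TUBG2, on its single probe.

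Of the 39 kinesin genes, 20 were detected on both control arrays. The motors of mitosis and cytokinesis had 11 of 15 probes and 9 of 11 genes detected there. These were KIF11, which slides spindle microtubules apart, KIF4A, KIF14, KIF15, KIF18A, KIF20A, KIF20B, KIF22 and KIF23. KIF4B was detected on no array and KIF18B on 1 of 4. The cargo motors had 6 of 11 genes detected, namely KIF1B, KIF1C, KIF5B, KIF13B, KIF16B and KIF21A. KIF1A and KIF5C, which are transport motors of neurons, and KIF21B were detected on no array, and KIF5A, also a neuronal motor, and KIF13A on 1 array each. In the group of ciliary and intraflagellar motors, 3 of 10 genes were detected on both control arrays: KIF3B, KIF7 and KIF24. KIF3A, the partner of KIF3B in a ciliary motor, reached detection on 1 control and 1 miR-223 array at 115 and 130 units in control cells. KIF17, KIF19, KIF3C and KIF6 were detected on no array, and no probe of KIF9 or KIF27 on more than 1. KIF2A and KIF2C, which take microtubules apart from their ends, were detected, while KIF2B was not. None of KIF12, KIF25, KIF26A and KIF26B was detected on both control arrays.

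**Figure D1:**
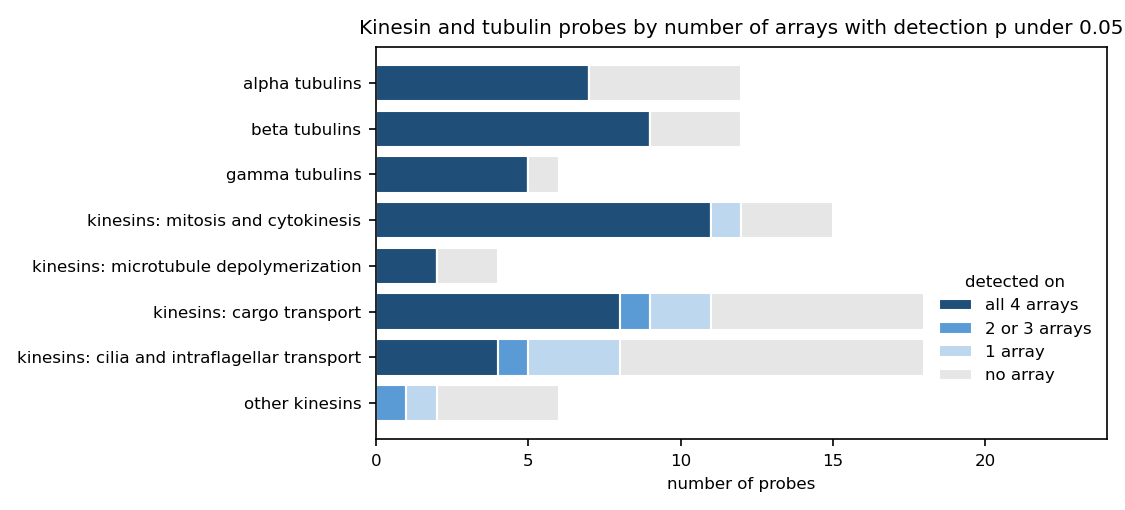
Horizontal bars count the kinesin and tubulin probes of each family or kinesin role by the number of the 4 arrays on which the detection p was under 0.05. Mitotic kinesins had 11 of 15 probes detected on all 4 arrays, against 4 of 18 for ciliary and intraflagellar kinesins.

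The comparison of the groups asked which of these genes change when cells are given miR-223. Signals were corrected for background, quantile normalized and taken to log2, and 49 of the 91 probes, for 36 genes, were detected on at least 2 arrays and tested. None of the 49 passed limma at a p adjusted over all 18629 tested probes under 0.05, where the background was 0.0% (0 probes). At an unadjusted limma p under 0.05, 1 of the 49 was lower, a TUBA1A probe, and 0 were higher, where the background over all probes was 2.78% lower and 2.68% higher. When arrays of equal number were blocked, with a variance trend on intensity and robust moderation, limma called 1 of the 49, lower, beside a background of 1.01% (0.628% lower). With the block alone it called 0. Further block fits were chosen after seeing the data. With the block and no background correction limma called 3 (background 1.99%). With the block on the authors' quantile normalized values it also called 3 (background 2.16%). The labels do not tie equal numbers to a common experiment, so these fits are alternatives. The largest differences were those of TUBA1A, KIF23 and TUBG1, each at 1.60-fold or less, and other probes of the same genes gave smaller values.

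For TUBA1A, probe ILMN_1742981 gave log2 intensities of 13.57 and 13.36 in the control arrays and 12.89 and 12.68 in the miR-223 arrays. The miR-223 arrays were both lower than either control. Its raw signals were 11362 and 11168 units in control and 7257 and 7069 units in miR-223 arrays, with bead standard errors from 495 to 1374 units. The difference, always miR-223 minus control, was -0.68 ± 0.23 (SE) on the log2 scale, or 1.60-fold lower, with a 95% interval from -1.20 to -0.16 and a limma adjusted p of 0.909. Leaving out 1 array at a time gave -0.78 to -0.57. The other TUBA1A probe, ILMN_2148819, stood at 14.69 and 14.45 in control and 14.49 and 14.21 in miR-223 arrays, so its groups overlapped, and its difference was -0.22 ± 0.23 (SE).

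TUBA1B and TUBA1C are the neighbours of TUBA1A on chromosome 12, with no other protein-coding gene between them in RefSeq. TUBA1B stood at 14.61 and 14.52 in control and 14.37 and 14.26 in miR-223 arrays, with no overlap and a difference of -0.25 ± 0.22 (SE). The TUBA1C probe ILMN_1742167 stood at 14.50 and 14.21 in control and 14.13 and 13.93 in miR-223 arrays, again with no overlap, a difference of -0.32 ± 0.23 (SE). The other TUBA1C probe, ILMN_3251341, went the other way, at 13.88 and 13.75 in control and 14.25 and 13.78 in miR-223 arrays (0.20 ± 0.25, SE), and stood at -0.04 without miR-223 replicate 1. The probes of TUBA1A, TUBA1B and TUBA1C, grouped after their values were seen, thus had 4 of 5 differences below 0 (background 49.5%). The probes of these genes were bright, at log2 values from 12.68 to 14.69 on arrays whose highest value was 15.15.

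TUBA3D stood at 9.90 and 9.71 in control and 9.54 and 9.06 in miR-223 arrays, without overlap (-0.51 ± 0.25, SE, limma adjusted p = 0.929). Without miR-223 replicate 2 its difference was -0.27. TUBA4A stood at 11.55 and 11.29 in control and 11.77 and 11.41 in miR-223 arrays, with overlap, at 0.17 ± 0.24 (SE). Over the 7 tested alpha tubulin probes the median difference was -0.25, beside a median of 0.0031 over all 18629 probes. Of the 7, 5 were below 0 (background 49.5%). On 4 of the 7 the groups did not overlap, all lower with miR-223, where the background was 16.8% lower. These probes read closely related transcripts and are not independent. Over all 12 alpha tubulin probes, the 5 undetected ones included, the median was -0.07.

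Differences of the beta tubulins ran in both directions, with a median of -0.10 over 9 probes, 5 of them below 0 (background 49.5%). Groups did not overlap on 1 of the 9 (11.1%), beside a background of 33.2% in either direction. TUBB6, a minor beta isotype, stood at 8.42 and 8.35 in control and 8.07 and 7.95 in miR-223 arrays on probe ILMN_1699489, the single beta tubulin probe whose groups did not overlap (-0.37 ± 0.22, SE). Its other probe varied more between replicates than between groups, at 7.54 and 6.08 in control and 7.07 and 5.91 in miR-223 arrays. The 2 probes of TUBB, the main beta isotype, differed by -0.24 ± 0.24 (SE) and 0.07 ± 0.22 (SE), each with overlapping groups. TUBB4B stood at 12.69 and 12.29 in control and 12.71 and 12.03 in miR-223 arrays, a difference of -0.12 ± 0.29 (SE).

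TUBB3 was nearly level, at 9.51 and 9.50 in control and 9.66 and 9.37 in miR-223 arrays, with a difference of 0.01 ± 0.23 (SE) and a 95% interval from -0.51 to 0.53. TUBB2A differed by -0.10 ± 0.22 (SE). TUBB2B (0.33 ± 0.32, SE) and the TUBB7P probe (0.32 ± 0.24, SE) had the highest differences of the family. Without background correction they stood at 0.13 and 0.29. For TUBB2B, miR-223 replicate 2 stood at 6.21 against 5.28, 5.60 and 5.32 on the others, and without it the difference was -0.12. TUBB7P stood at 10.07 and 9.72 in control and 10.05 and 10.39 in miR-223 arrays, with overlap, and at 0.15 when either of the arrays numbered 2 was left out.

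TUBG1, the main gamma tubulin, gave different answers by probe. Probe ILMN_2367743 stood at 9.81 and 9.61 in control and 10.41 and 10.08 in miR-223 arrays, both miR-223 arrays above both controls. Its difference was 0.53 ± 0.23 (SE), 1.44-fold higher, with a limma adjusted p of 0.910 and values from 0.36 to 0.70 when 1 array was left out. The other 3 tested TUBG1 probes differed by 0.08 ± 0.23 (SE), -0.10 ± 0.29 (SE) and -0.12 ± 0.24 (SE), all with overlapping groups. The untested probe, ILMN_1663607, was not detected on any array. TUBG2 stood at 6.18 and 6.33 in control and 6.43 and 6.21 in miR-223 arrays, at 0.07 ± 0.22 (SE). The median of the 5 gamma tubulin probes was 0.07.

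**Figure D2:**
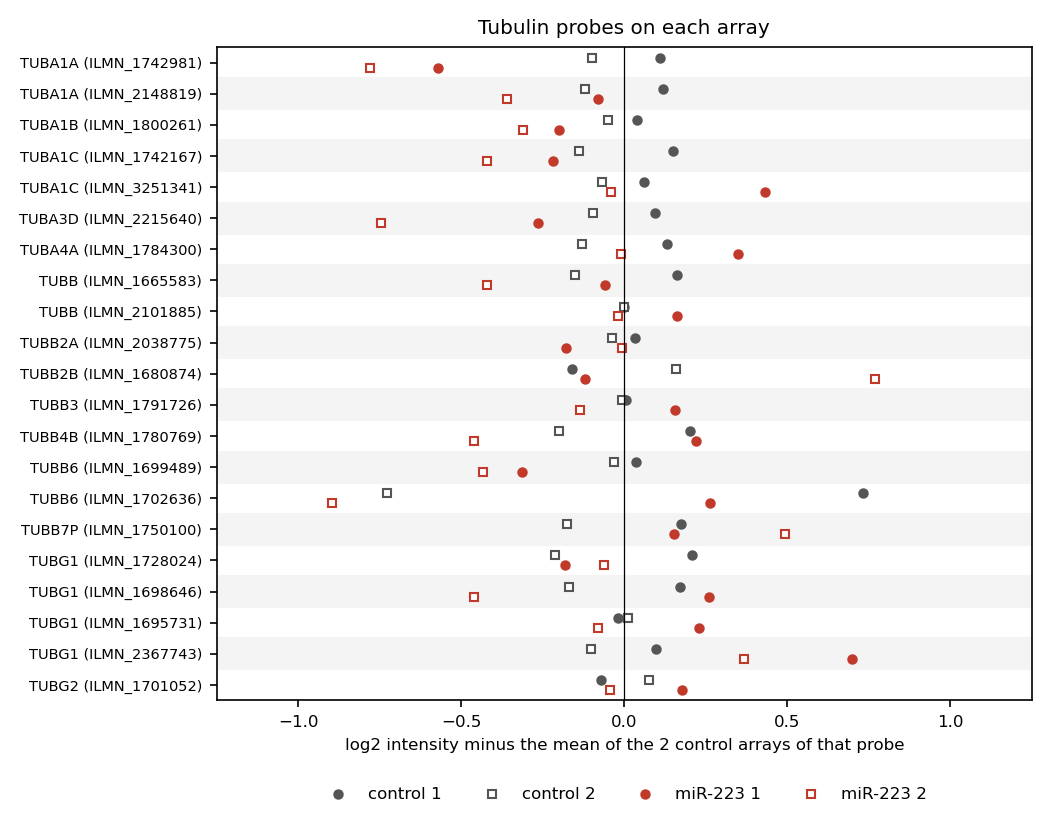
Each row is a tested tubulin probe, and points give the log2 intensity of each array minus the mean of the 2 control arrays of that probe (grey, control; red, miR-223; filled circles, replicate 1; open squares, replicate 2). Both red points lie left of both grey ones for ILMN_1742981 of TUBA1A and right of them for ILMN_2367743 of TUBG1, while most other rows overlap.

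Among kinesins of mitosis and cytokinesis, KIF23, a subunit of the centralspindlin complex needed for cytokinesis, had the lowest value. Probe ILMN_1811472 stood at 10.07 and 9.49 in control and 9.42 and 9.05 in miR-223 arrays. The groups did not overlap, though the lower control array was close to the higher miR-223 array. The difference was -0.54 ± 0.27 (SE), 1.46-fold lower, with a limma adjusted p of 0.937, and was -0.26 without control replicate 1 and -0.83 without control replicate 2. A dimmer KIF23 probe, ILMN_1716553, had raw signals of 166 and 145 units in control and 150.4 and 146 units in miR-223 arrays, with overlap (-0.12 ± 0.30, SE).

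KIF4A, a chromosome-bound motor of the central spindle, stood at 7.98 and 7.99 in control and 7.83 and 7.37 in miR-223 arrays, without overlap (-0.38 ± 0.24, SE). It stood at -0.15 without miR-223 replicate 2. KIF15, a spindle motor, also had groups that did not overlap, by a small margin, at -0.11 ± 0.22 (SE). KIF18A, which limits the swaying of chromosomes on the spindle, stood at 7.96 and 7.94 in control and 8.22 and 7.99 in miR-223 arrays (0.15 ± 0.22, SE), without overlap in the other direction.

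Both probes of KIF11 had overlapping groups, at 0.10 ± 0.24 (SE) and -0.06 ± 0.26 (SE). KIF20A, a motor of the central spindle, stood at 9.87 and 10.29 in control and 10.00 and 10.14 in miR-223 arrays, a difference of -0.0061 ± 0.24 (SE) with a 95% interval from -0.56 to 0.55. KIF22, which moves chromosome arms, stood at 10.52 and 10.82 in control and 11.06 and 10.69 in miR-223 arrays, at 0.21 ± 0.24 (SE), or 0.02 without miR-223 replicate 1. The 11 tested probes of this role had a median of -0.03, with 8 below 0 (background 49.5%). KIF20A and KIF20B (-0.0036) were among those 8 but nearly level. On 4 of the 11 (36.4%) the groups did not overlap, beside a background of 33.2% in either direction.

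KIF2C, a microtubule depolymerase of centromeres, stood at 9.01 and 8.75 in control and 9.04 and 9.11 in miR-223 arrays, without overlap (0.19 ± 0.22, SE, and 0.06 without control replicate 2), and KIF2A at 0.02 ± 0.22 (SE). Of the cargo motors, KIF5B, the widely used conventional kinesin, stood at 9.44 and 9.34 in control and 9.46 and 9.34 in miR-223 arrays, a difference of 0.0071 ± 0.22 (SE) with a 95% interval from -0.49 to 0.51. KIF1C stood at -0.23 ± 0.25 (SE) and was level (0.0001) without miR-223 replicate 1. A KIF16B probe stood at 0.30 ± 0.33 (SE), but its control arrays were 6.34 and 7.32. The 9 cargo motor probes had a median of 0.0071.

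KIF3B, which pairs with KIF3A to carry material into cilia, stood at 9.31 and 9.26 in control and 8.73 and 8.90 in miR-223 arrays on probe ILMN_1702279. Both miR-223 arrays lay below both controls, and the difference was -0.47 ± 0.22 (SE), 1.39-fold lower, with a limma adjusted p of 0.917. It kept values from -0.56 to -0.39 when 1 array was left out. The other KIF3B probe, ILMN_2081398, overlapped between groups, at -0.07 ± 0.23 (SE).

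KIF24, a centriole kinesin, stood at -0.16 ± 0.21 (SE) without overlap, and KIF7, a regulator of Hedgehog signalling in cilia, at 0.29 ± 0.24 (SE) with overlap. The dim KIF7 and KIF26B probes stood at 0.10 and -0.10 without background correction, against 0.29 and -0.28 with it. KIF26B was detected on 1 array of each group.

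**Figure D3:**
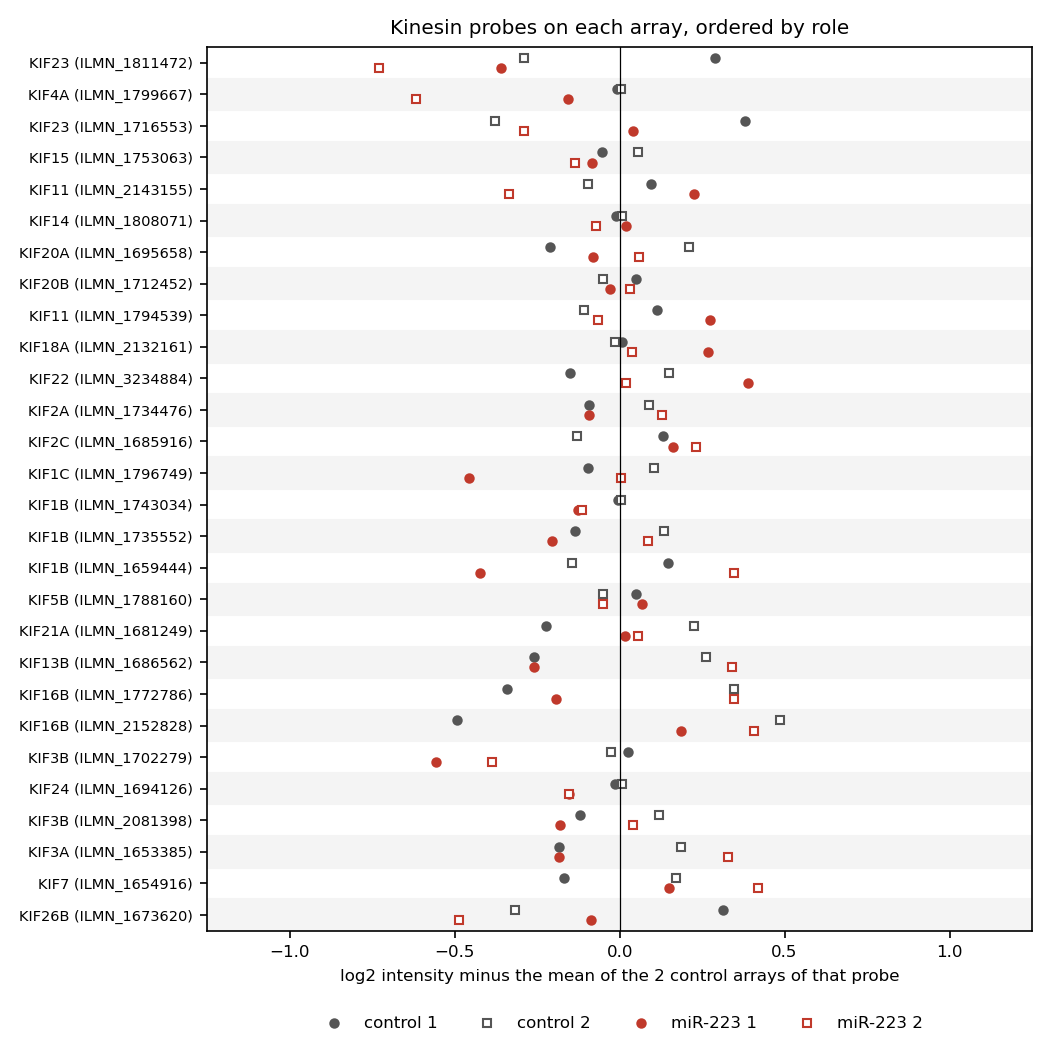
Each row is a tested kinesin probe, in the order mitosis and cytokinesis, depolymerization, cargo transport, cilia and others, with points as log2 intensity minus the mean of the 2 control arrays of that probe. The red miR-223 points lie left of both grey control points for ILMN_1811472 of KIF23 and for ILMN_1702279 of KIF3B, and most rows overlap.

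Over the 28 tested kinesin probes the median difference was -0.02, with 12 above and 16 below 0 and values from -0.54 to 0.30. Groups did not overlap on 8 of these, 2 higher and 6 lower, beside backgrounds of 16.4% higher and 16.8% lower. Of all 49 kinesin and tubulin probes, 14 had groups that did not overlap (28.6%, background 33.2%), 3 higher and 11 lower, and 28 had a difference below 0 (57.1%, background 49.5%). A difference of 1.5-fold or more was seen for 1 of the 49, the TUBA1A probe ILMN_1742981, where the background was 4.77%. The median size of the difference, in either direction, was 0.12 over the 49 probes, and the median gap was 0.24 between the 2 control arrays and 0.30 between the 2 miR-223 arrays. The same medians over all tested probes were 0.17, 0.26 and 0.26. A difference of 2-array means varies less than a gap between single arrays, so these sizes are given side by side only. For 35 of the 49 probes (71.4%) the arrays numbered 1 and 2 differed in the same direction in both groups, against 61.7% of all tested probes.

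The probes of KIF11, TUBA1C, TUBB and TUBG1 disagreed in sign. These are 4 of the 10 member genes measured by more than 1 tested probe (40.0%), against 46.6% of the 3388 such genes on the array. The authors' deposited table averages the probes of a gene. Its lowest log2 fold changes among members were those of KIF23 (-0.42), TUBA3D (-0.40), TUBA1A (-0.35) and KIF4A (-0.27). The highest were those of TUBB7P (0.29), KIF22 (0.20), KIF13A (0.19) and TUBG1 (0.17). The KIF13A value rests on a dim probe that was detected on 1 miR-223 array and no control array, and was not tested here.

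**Figure D4:**
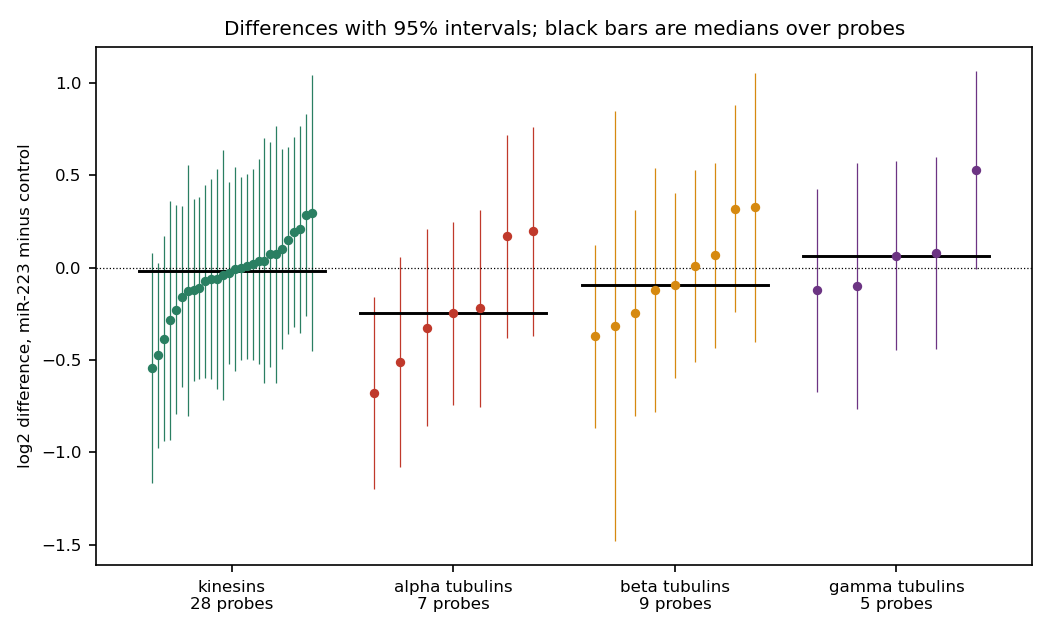
Points give the log2 difference, miR-223 minus control, of each tested probe by family, with 95% intervals from limma before any adjustment, and black bars mark the median over probes. The interval of 1 probe, ILMN_1742981 of TUBA1A at -1.20 to -0.16, lies wholly below 0, and all others span it.

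Partner genes came from lists written from general knowledge. No partner probe passed limma after adjustment over all probes. STMN1, the microtubule-destabilizing stathmin, stood at 9.64 and 9.35 in control and 8.07 and 7.98 in miR-223 arrays (-1.47 ± 0.23, SE), with a dimmer probe at -1.08 and the dimmest at 0.57. Without background correction these stood at -1.20, -0.56 and 0.19. TUBD1, or delta tubulin, a centriole protein outside the rule for members, stood at 6.20 and 6.24 in control and 7.02 and 7.35 in miR-223 arrays (0.96 ± 0.23, SE), or 0.51 without background correction. This was the highest of 3 tested probes, for 2 genes, of tubulins outside the rule. Their median was 0.52, and the lowest of them was nearly level at 0.05.

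Kinesin subunits outside the rule, such as light chains, KIFC motors, CENPE and the adaptor KIFAP3, had 10 of 11 tested probes below 0 (background 49.5%), with a median of -0.20. On 6 of these the groups did not overlap, lower with miR-223 (background 16.8%), and 0 had an unadjusted limma p under 0.05. KIFAP3, which binds KIF3A and KIF3B, stood at 6.95 and 7.12 in control and 6.49 and 6.90 in miR-223 arrays. Its difference was -0.34 ± 0.24 (SE), or -0.19 without background correction, and that of KLC4 was 0.09. Dynein and dynactin, the motor complex of the opposite direction, had 23 of 30 probes below 0 (background 49.5%), with a median of -0.12. The groups did not overlap on 14 of these, 4 higher and 10 lower (backgrounds 16.4% and 16.8%). At an unadjusted limma p under 0.05, 2 were lower (background 2.78%) and 0 higher. DCTN1, its largest dynactin subunit, stood at 7.12 and 6.93 in control and 6.30 and 6.35 in miR-223 arrays. The DCTN1 difference was -0.71 ± 0.22 (SE), but -0.37 without background correction. For the adaptor gene NDEL1 it was 0.38 ± 0.25 (SE), or 0.20 without background correction.

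Tubulin folding genes had a median of 0.02 over 31 probes, with 1 higher and 2 lower at an unadjusted p under 0.05 in limma (backgrounds 2.68% and 2.78%). The cofactor gene TBCC stood at 0.66 ± 0.24 (SE) and the chaperonin subunit gene CCT3 at -0.69 ± 0.22 (SE). Genes of the gamma tubulin ring complex had a median of 0.02 over 14 probes. TUBGCP6 stood at 0.56 ± 0.22 (SE) and NEDD1 at -0.37 ± 0.23 (SE), each on a dim probe detected on 2 arrays. Without background correction they stood at 0.24 and -0.12. Enzymes that modify tubulin had 15 of 17 probes below 0 (background 49.5%) and a median of -0.10, with 0 at an unadjusted limma p under 0.05. On 2 of these the groups did not overlap, 2 lower and 0 higher (backgrounds 16.8% and 16.4%). The median was 0.05 between the arrays numbered 1 and -0.24 between those numbered 2. TPGS2 stood at -0.33 ± 0.22 (SE) and VASH2 at 0.04. Plus end and lattice binding proteins had a median of -0.09 over 39 probes, with MAPRE2 at -0.55 ± 0.23 (SE) and CLIP1 at 0.48 ± 0.22 (SE). Severing enzymes had a median of 0.06 over 8 probes, with KATNA1 at 0.60 ± 0.23 (SE) and KATNAL1 at -0.84 ± 0.30 (SE), or -0.32 without background correction.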

How the data were processed

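The deposited file of bead signals holds, per the file headers, an average intensity per probe and array on a linear scale, a standard error over beads, a detection p-value and how many beads were read. The quantiles of these intensities differed between arrays. The series' value table holds intensities that the authors quantile normalized, since its sorted columns differ by at most 0.23%. The authors' table by gene gives log2 expression and log2 fold changes, the former equal for 34670 of 34670 genes checked to the log2 of the mean of those intensities over a gene's probes, within 0.005. The submitters' processing notes name GenomeStudio, BeadStudio and Partek without saying which step each performed.

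Bead signals were corrected by normexp on negative controls inferred from the detection p-values (offset 16), quantile normalized and taken to log2 in limma 3.58.1 (R 4.3.3). Background correction enlarged differences of dim probes. The fit took the 18629 of 47321 probes that at least 2 arrays detected (detection p under 0.05), with group as the only term, moderated by limma's eBayes (6.21 prior degrees of freedom). Tests were two-sided and adjusted by Benjamini-Hochberg over all tested probes. The procedure was tried on simulated data with equal spread for all probes and changes larger than any kinesin or tubulin difference. That trial cannot show how often differences as small as those of the members would be called. Alternatives changed the background correction, normalization, filter, variance model, replicate block, input values or arrays. P-values rest on the spread between these arrays.

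Gene names were updated through RefSeq (GRCh38.p14): 87 of the 91 probes had a current symbol, 3 a synonym and 1 kept its name. The members and lists were chosen with earlier results of these data known. The text names every tested tubulin gene, the 6 kinesin probes with the smallest p in each direction, any kinesin at 1.5-fold or more without overlap (there was none), and KIF5B, KIF11, KIF20A, KIF23 and KIF2C. For each partner list it names the gene with the smallest p in each direction, and STMN1. Other genes were named after their values were seen.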

Additional observations from a re-analysis of the deposited data

How the results depend on the processing

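The 2 arrays in each group limit every value. Without the block, limma called 0 probes of kinesins and tubulins under each planned normalization, filter, variance model and set of arrays. Over all probes it called 0 to 1 when 1 array was left out, the 1 without control replicate 2, and 0 in the other planned settings without the block. Arrays of equal number deviated together with a correlation of 0.352 across probes, but no label ties them to a common experiment. The replicate block alone called 0 probes. With a variance trend and robust moderation added together, the replicate block called 188 of all probes (1.01%) and 1 member, TUBA1A probe ILMN_1742981 (limma adjusted p = 0.00777). Chosen after seeing the data, the replicate block without background correction called 371 (1.99%) and 3 members, and on the authors' values 402 (2.16%) and 3 members: TUBA1A (limma adjusted p = 0.00225 and 0.00168), KIF23 (0.0357 and 0.0320) and TUBG1 (0.0334 and 0.0298), each on the probe with its largest difference. The cause of these calls was not tested. At an unadjusted limma p under 0.05, 1 of the 49 tested members was counted, beside 1017 of all 18629 tested probes. Over the alternatives that kept all 4 arrays, 1 to 9 members were counted, and the count over all probes moved as well. Without background correction there were 5 members, beside 1031 of all probes. The 2 block fits chosen after seeing the data gave 9 members each, beside 2354 and 2378 of all probes.

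Leaving out 1 array at a time gave medians from -0.12 to 0.0249 for kinesins, -0.36 to -0.17 for alpha, -0.14 to 0.15 for beta and -0.06 to 0.23 for gamma tubulins. The beta median was 0.07 without control replicate 1 and 0.15 without miR-223 replicate 2. The alpha median was -0.0689 with no filter on dim probes, since undetected probes then enter. Of 480 values for 37 named probes over 13 settings, 450 kept their direction and call and 29 changed sign; 28 of those came from leaving out 1 array, and KIF20A stood at 0.037 after median scaling. The ranges over left-out arrays were -0.0405 to 0.43 (ILMN_3251341 of TUBA1C), -0.0061 to 0.35 (TUBA4A), -0.0237 to 0.16 (ILMN_2101885 of TUBB), -0.12 to 0.77 (TUBB2B), -0.14 to 0.16 (TUBB3), -0.46 to 0.22 (TUBB4B) and -1.05 to 0.41 (ILMN_1702636 of TUBB6). For TUBG1 they were -0.074 to 0.23 (ILMN_1695731), -0.46 to 0.26 (ILMN_1698646) and -0.33 to 0.0882 (ILMN_1728024), and for TUBG2 -0.0425 to 0.18. Kinesins ranged from -0.0677 to 0.27 and -0.34 to 0.22 (KIF11), -0.19 to 0.79 (KIF16B), -0.45 to 0.0001 (KIF1C), -0.22 to 0.20 (KIF20A), -0.51 to 0.26 (ILMN_1716553 of KIF23), -0.60 to 0.0301 (KIF26B) and -0.051 to 0.0652 (KIF5B). Values that kept their sign but moved by over 1.5 times had ranges of 0.06 to 0.32 (KIF2C), 0.03 to 0.26 (KIF18A), 0.12 to 0.46 (KIF7), 0.02 to 0.39 (KIF22), -0.61 to -0.15 (KIF4A), -0.83 to -0.26 (ILMN_1811472 of KIF23), -0.75 to -0.27 (TUBA3D), -0.18 to -0.0079 (TUBB2A), 0.15 to 0.49 (TUBB7P), -0.36 to -0.08 (ILMN_2148819 of TUBA1A), -0.47 to -0.17 (ILMN_1742167 of TUBA1C) and -0.42 to -0.07 (ILMN_1665583 of TUBB). The cause was not tested.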
